A study of Homo sapiens with 22 samples.

Results

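RNA from MOLM-13 cells held in the SWI/SNF inhibitor BRM014 for 72 h was compared directly with RNA from the same line held in it for 24 h. MOLM-13 is an established human acute myeloid leukaemia line that carries a KMT2A-MLLT3 fusion and an internal tandem duplication of the kinase gene FLT3. Each time was represented by 2 libraries of polyadenylated RNA, chosen by the line, drug and time in their titles, so the comparison used 4 of the 22 libraries of the series. All 4 came from cells given 1 µM BRM014, labelled as wild type, and they differ in their labels only by the time. The other libraries were 2 of MOLM-13 in dimethyl sulfoxide (DMSO, the solvent), libraries of the leukaemia lines MV-4-11 and THP-1 given DMSO or the same drug at the same dose and times, and THP-1 libraries given a phorbol ester or a compound against the factor PU.1. MOLM-13 in DMSO served here as the reference without the drug, and its labels give no single time. Longer exposure to the drug and longer culture cannot be told apart in these groups. Whether replicates came from different cultures is not given in the labels, and every p-value therefore reflects how much these particular libraries varied, possibly for technical reasons alone.

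SWI/SNF complexes use the energy of ATP to slide or evict nucleosomes and so keep enhancers and promoters open to transcription factors. BRM014 inhibits their ATPases, SMARCA4 (BRG1) and SMARCA2 (BRM). In myeloid leukaemia cells these complexes work at enhancers bound by PU.1 and are known for maintaining MYC transcription, and myeloid maturation is ordinarily accompanied by a fall of MYC, exit from the cell cycle and a rise of granule and lysosomal genes.

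The 4 libraries held 16114635 to 20236113 reads in genes, and 15940 to 16438 genes had at least 1 read. Replicates correlated at r = 0.991 at 24 h and 0.993 at 72 h over log2 values of the genes tested, with 28063 genes in the files and 16794 tested. A count of 0 in a single library allows up to 3 reads, or 0.145 to 0.191 CPM (the usual depth-scaled read count), counting error only. Reads that the counting assigned to no feature made up 13.0% and 13.6% of all reads tallied, in genes or not, at 24 h. The share was 18.2% and 18.4% at 72 h and 13.2% and 12.4% in DMSO, so it separated the times as well. In MV-4-11 the share was 12% for each 24 h library, against 13.1% and 13.5% for those of 72 h. THP-1 had 18.4% and 18.9% at 24 h, with 19.2% and 18.8% at 72 h, so its times overlapped. Which features were counted is not given, so some of these reads may lie in introns of annotated genes. The part of this share in the results was not tested.

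The leukaemia identity of the libraries was checked against 8 markers. FLT3 lay between 369 and 443 CPM in the 4 libraries, CSF3R between 69.1 and 368, SPI1 (PU.1) between 121 and 185, PTPRC between 80.6 and 125 and CD33 between 19.7 and 52.4 CPM. HOXA9, MEIS1 and MPO were at 20.3 to 23.0, 28.5 to 49.6 and 5.82 to 13.5 CPM. Of 21 erythroid and megakaryocyte markers 18 were under 1 CPM in every one of the 4 libraries, as were 13 of 17 lymphoid and 12 of 15 epithelial, endothelial and fibroblast markers. Their summed levels were 57.3 to 60.2 CPM at 24 h and 68.0 to 68.6 at 72 h, 92.1 to 93.7 and 106 to 114, and 77.9 to 82.5 and 113 to 115, carried mostly by EPOR, CD4 and PECAM1, which myeloid cells can also express. Of those 3, CD4 (0.31 ± 0.07 on the log2 scale) and PECAM1 (0.49 ± 0.06) rose with time. GP1BA, a platelet glycoprotein, rose from 7.07 and 4.83 CPM to 15.5 and 19.3, and NKG7, a granule gene of cytotoxic lymphocytes, fell from 5.67 and 4.70 to 1.30 and 1.51. GNLY of the same lymphoid list went the other way, from 17 and 16 unscaled reads to 70 and 50. The reads of COL1A1, in the third list, went from 10 and 11 to 54 and 55. Over the 3 lists 2 of 7, 2 of 11 and 2 of 10 tested members rose and 1, 3 and 0 fell, beside 20.8% and 22.7% of all genes tested. The part of these markers in the results was not tested.

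Between 24 h and 72 h, 3488 genes rose (20.8% of the 16794 tested) and 3818 fell (22.7%), so 43.5% were called in one direction or the other at an adjusted p under 0.05 (edgeR's quasi-likelihood test, Benjamini-Hochberg adjustment over all genes tested). "Rose" and "fell" refer to such calls throughout. The change was at least 2-fold for 1221 of the genes that rose and 1166 of those that fell, and at least 4-fold for 362 and 370. The median log2 fold change over all genes tested was 0. In RNA from whole cultures, fewer cells that express a gene and less RNA per cell cannot be told apart. Values are CPM in the first and second replicate, scaled by edgeR's TMM factors, and log2 fold changes of 72 h over 24 h ± standard error.

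**Figure D1:**
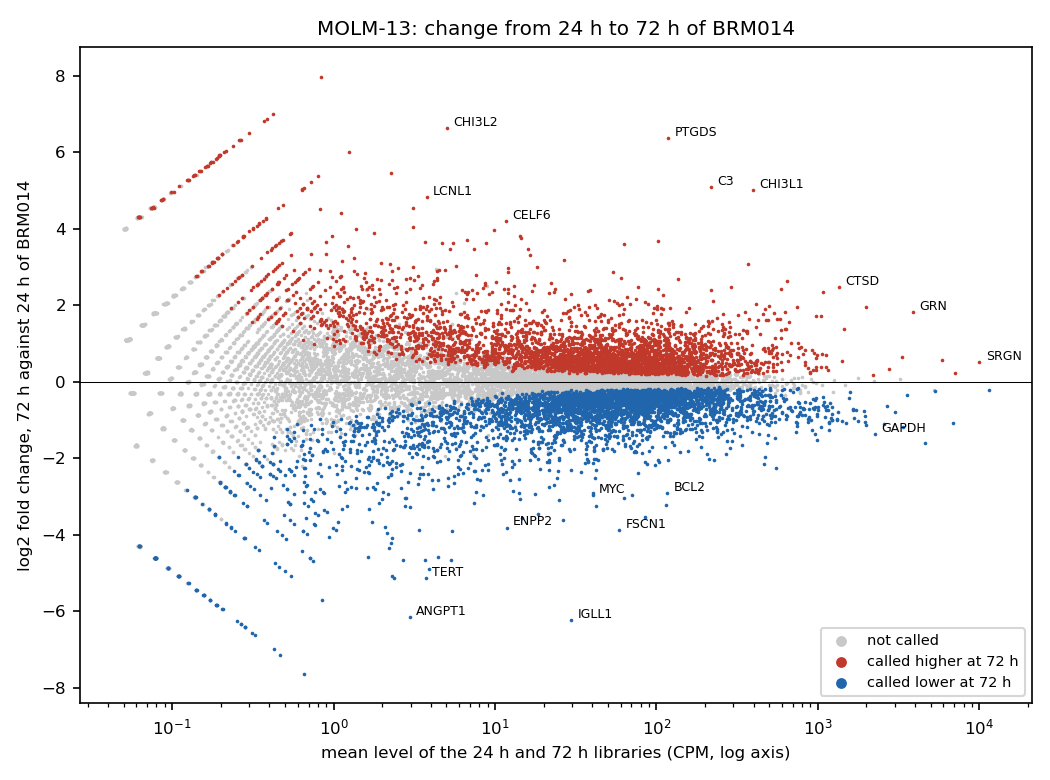
Each point is 1 of the genes tested with a read in the 4 libraries, leaving out those with the very lowest mean level. Its mean level in CPM (log axis) runs across and its log2 fold change of 72 h over 24 h of BRM014 upwards. Red points were called higher, blue points lower and grey points neither. Calls reach from below 1 CPM to the most abundant transcripts, and the diagonal rows at the left are genes with a handful of reads.

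The largest rises among genes at 5 CPM or more included C3, PTGDS, CHI3L1 and CHI3L2, all of which encode secreted proteins. C3, the central complement protein (chr19:6677704-6730562, minus strand, GRCh38), was at 11.4 and 13.3 CPM at 24 h and at 419 and 423 CPM at 72 h (5.09 ± 0.11, edgeR adjusted p = 3.1e-17). PTGDS, which makes prostaglandin D2 (chr9:136975092-136981742, plus strand), went from 2.29 and 3.40 to 237 and 233 CPM (6.36 ± 0.21). The levels at 24 h and 72 h did not overlap for either gene, and in DMSO C3 stood at 7.0 and 7.32 CPM and PTGDS at 0.196 and 0.923. CHI3L1, a secreted chitinase-like glycoprotein (chr1:203178931-203186749, minus strand), was at 255 and 272 CPM in DMSO, 23.1 and 24.7 at 24 h and 783 and 757 at 72 h (5.01 ± 0.09), so its 24 h level lay below both others. Its relative CHI3L2 had 3 reads over both 24 h libraries and 402 over both at 72 h, a ratio of 107 with a counting interval of 36.3 to 521.

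Other large rises began from very low levels. S100A8, a subunit of the neutrophil protein calprotectin, was at 2.36 and 1.67 CPM and then at 24.8 and 29.4 (3.75 ± 0.23), and TP53I3, an oxidoreductase induced by p53, at 1.66 and 2.17 and then at 27.9 and 25.7 (3.80 ± 0.19). CELF6, an RNA-binding protein, rose by 4.21 ± 0.25, HSD17B14, a steroid dehydrogenase, by 4.53 ± 0.52, TGM3, a transglutaminase, by 3.70 ± 0.50, DOK7, an adaptor of a muscle receptor kinase, by 3.98 ± 0.58, and LCNL1, a lipocalin-like gene, by 4.83 ± 0.46. LCNL1 starts at chr9:136981904 on the plus strand, just past the end of PTGDS, and reads running on from PTGDS were not told apart. The value of KCNE1B, at 4.06 ± 0.70, is uncertain because KCNE1 is a near-identical copy.

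The largest falls included IGLL1, TERT and FSCN1. IGLL1, the surrogate light chain of early B cells (chr22:23573125-23580308, minus strand), was at 146 and 169 CPM in DMSO, 54.6 and 62.9 at 24 h and 0.773 and 0.780 at 72 h (-6.23 ± 0.22). TERT, the catalytic subunit of telomerase (chr5:1253147-1295069, minus strand), went from 6.05 and 8.42 CPM to 0.290 and 0.104 (-5.13 ± 0.36). FSCN1, which bundles actin (chr7:5592823-5606655, plus strand), went from 99.8 and 120 to 7.54 and 7.49 CPM (-3.87 ± 0.12). For these genes every 72 h library lay below every 24 h and DMSO library.

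ANGPT1, a ligand of the TIE2 receptor, had 186 reads over the 24 h libraries and 3 over the 72 h libraries, a ratio of 0.0129 with a counting interval of 0.00263 to 0.0382. ENPP2 (autotaxin), which makes lysophosphatidic acid, fell by 3.81 on the log2 scale, GAL (the peptide galanin) by 4.66, ATP10A (a phospholipid flippase) by 4.65, FERMT1 (kindlin-1, an integrin activator) by 3.90, and RHEX, a signalling protein of erythroid cells, by 4.57. OCSTAMP, known from osteoclast fusion, fell by 4.88 and ELFN1 by 3.88. OTOF had been higher at 24 h, at 8.98 and 11.6 CPM, than in DMSO, at 0.720 and 0.852, and was at 0.435 and 0.364 at 72 h (-4.66 ± 0.41).

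MYC, the transcription factor that drives growth and ribosome synthesis, was at 744 and 809 CPM in DMSO, 73.1 and 70.0 at 24 h and 8.55 and 9.67 at 72 h. It fell by 2.97 ± 0.10 on the log2 scale between the times (edgeR adjusted p = 8.7e-15), and the 3 pairs of libraries did not overlap. Of 34 tested genes of the MYC network and ribosome biogenesis 31 fell and 3 rose, with a median of -0.86. The 3 that rose, MXD1, MNT (1.0) and MXD3 (0.31), all encode repressors that compete with MYC for its partner MAX, and MXD1 went from 150 and 144 to 495 and 494 CPM (1.75 ± 0.12). NOP16, a nucleolar protein, fell from 25.7 and 25.8 to 7.97 and 9.67 CPM.

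Cytosolic ribosomal protein genes fell with them. Of 32 tested 27 fell and none rose, with a median of -0.85, and their summed level went from 43731 and 41855 CPM to 24608 and 24793. Among them RPL8 fell by 1.12 ± 0.17 and RPLP0 by 1.09 ± 0.12 on the log2 scale. Many ribosomal protein genes have processed copies elsewhere in the genome, which makes their counts uncertain.

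Genes of nutrient use and protein folding were also lower. Of 24 glycolysis genes 19 fell and 2 rose (median -0.64), among them LDHA, which reduces pyruvate to lactate, from 449 and 423 to 149 and 147 CPM (-1.56 ± 0.09), and GAPDH from 3264 and 3237 to 1259 and 1243 CPM (-1.38 ± 0.11). The lactate transporter SLC16A1 fell by 1.54, and the 2 that rose were the isozymes ENO2 (1.42) and HK2 (0.51). SLC7A5, a transporter of large neutral amino acids (chr16:87830023-87869488, minus strand), was at 553 and 598 CPM in DMSO, 193 and 222 at 24 h and 22.5 and 21.8 at 72 h (-3.23 ± 0.09). It belongs to the integrated stress response list, in which 10 of 25 genes fell and 8 rose (median -0.31, or -0.12 in a fit of the 4 libraries alone). The arginine transporter SLC7A1 fell by 1.68, while NUPR1, a stress-induced nuclear protein, rose from 0.191 and 0.867 to 5.84 and 7.85 CPM. Among 29 chaperone and unfolded protein genes 19 fell and 1 rose (median -0.46), the latter being HERPUD1 (0.52), an endoplasmic reticulum protein. The cytosolic chaperone HSP90AB1 went from 1445 and 1503 to 511 and 510 CPM (-1.53 ± 0.06), the mitochondrial chaperonin HSPD1 fell by 1.25 and HSPH1 by 1.20. Of 31 respiratory chain subunits 14 fell and 1 rose (median -0.30), with SDHA (-0.65 ± 0.09), NDUFA9 (-0.63 ± 0.11) and CYC1 (-0.61 ± 0.12) the most changed.

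Every tested gene of DNA replication was lower at 72 h. All 37 fell, at a median of -1.48, against 22.7% of all genes tested. CDC6, which loads the replicative helicase, went from 62.3 and 58.9 to 11.5 and 17.2 CPM (-2.08 ± 0.13). ORC1, of the origin recognition complex, went from 66.4 and 73.4 to 17.1 and 16.6 (-2.05 ± 0.10), and the helicase subunit MCM5 (chr22:35400063-35425430, plus strand) from 329 and 353 to 83.9 and 83.2 (-2.03 ± 0.10). In DMSO, MCM5 stood at 278 and 325 CPM and ORC1 at 80.3 and 81.6, near their 24 h levels. Over the whole list the median change against DMSO was -0.22 at 24 h, with 19 of 37 lower and 3 higher, and -1.44 at 72 h, with all 37 lower. These comparisons share the DMSO libraries and called 46.2% and 59.7% of all genes tested.

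E2F proteins are the textbook regulators of these genes and are held in check by the RB family. Their consensus was searched on both strands as TTTCCCGC or TTTGGCGC in RefSeq promoter windows (GRCh38.p14, 250 bases before to 50 after the start). It was present in 16 of the 33 DNA replication genes with a window (48.5%), in 3.53% of the 12176 tested genes with one and in 2.31% of all 27305 windows. Promoter stretches of 3 strongly lowered members are shown, each ending at the latest at the gene's start. They run 5′ to 3′ on the gene's strand, with the match in capitals (on the opposite strand for GINS2 and CDT1). A match describes the letters and is not evidence of binding. GINS2 is a helicase subunit at chr16:85688955-85689010 (minus strand, -2.01), CDT1 is a loading factor at chr16:88803729-88803786 (plus strand, -1.82), and MCM6 is a helicase subunit at chr2:135876501-135876558 (minus strand, -1.80).
GINS2: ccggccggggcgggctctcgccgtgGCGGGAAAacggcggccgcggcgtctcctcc
CDT1: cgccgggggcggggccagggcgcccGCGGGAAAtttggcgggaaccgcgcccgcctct
MCM6: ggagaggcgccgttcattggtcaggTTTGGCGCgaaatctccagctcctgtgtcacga

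Mitotic genes were mostly lower as well. Of 36 tested 31 fell and 1 rose, at a median of -0.76. AURKA, a spindle pole kinase, went from 104 and 95.8 to 34.3 and 37.8 CPM (-1.47 ± 0.08), the checkpoint kinase BUB1 from 164 and 155 to 57.8 and 61.3 (-1.42 ± 0.07), and CDC20, an activator of the anaphase-promoting complex, from 113 and 124 to 42.4 and 47.5 (-1.40 ± 0.10). The single member that rose, CKAP2, was named after its values were seen, and its call was lost without the second 24 h library (0.23, edgeR adjusted p = 0.13) or the second 72 h library (0.28, edgeR adjusted p = 0.076).

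The cell cycle homology region, searched on both strands by its core TTTGAA, is the element through which the MuvB complex acts on late cell cycle genes. It occurred in 20 of the 30 mitotic genes with a window (66.7%), in 10.5% of tested genes and in 15.4% of all windows. CDC20 at chr1:43358891-43358946 (-1.40), the kinase PLK1 at chr16:23678835-23678888 (-1.27) and the cyclin CCNB2 at chr15:59105092-59105145 (-1.10) are shown, all on the plus strand with the core in capitals.
CDC20: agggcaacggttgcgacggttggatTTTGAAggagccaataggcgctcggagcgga
PLK1: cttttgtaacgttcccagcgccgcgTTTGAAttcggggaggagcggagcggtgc
CCNB2: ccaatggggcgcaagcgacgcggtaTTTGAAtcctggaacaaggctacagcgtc

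Regulators of G1, the phase before DNA synthesis, were mostly lower, with 17 of 26 falling and 1 rising (median -0.49). The D-type cyclin CCND2 went from 23.2 and 22.3 to 3.38 and 2.86 CPM (-2.86 ± 0.33). CCND1 was at 3.86 and 5.97 CPM in DMSO, 16.3 and 17.3 at 24 h and 4.69 and 4.42 at 72 h (-1.88 ± 0.15), so its 72 h libraries lay within the range of DMSO. The phosphatase CDC25A fell by 1.85, and E2F1 and CCNE2, both named after their values were seen, by 1.51 and 1.22. Neither of the main inhibitors of cyclin-dependent kinases in the key genes rose. CDKN1A (p21) fell from 193 and 189 to 119 and 119 CPM (-0.68 ± 0.08), and CDKN1B (p27) fell by 0.42 ± 0.12, a call lost without the first 24 h library (edgeR adjusted p = 0.079).

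**Figure D2:**
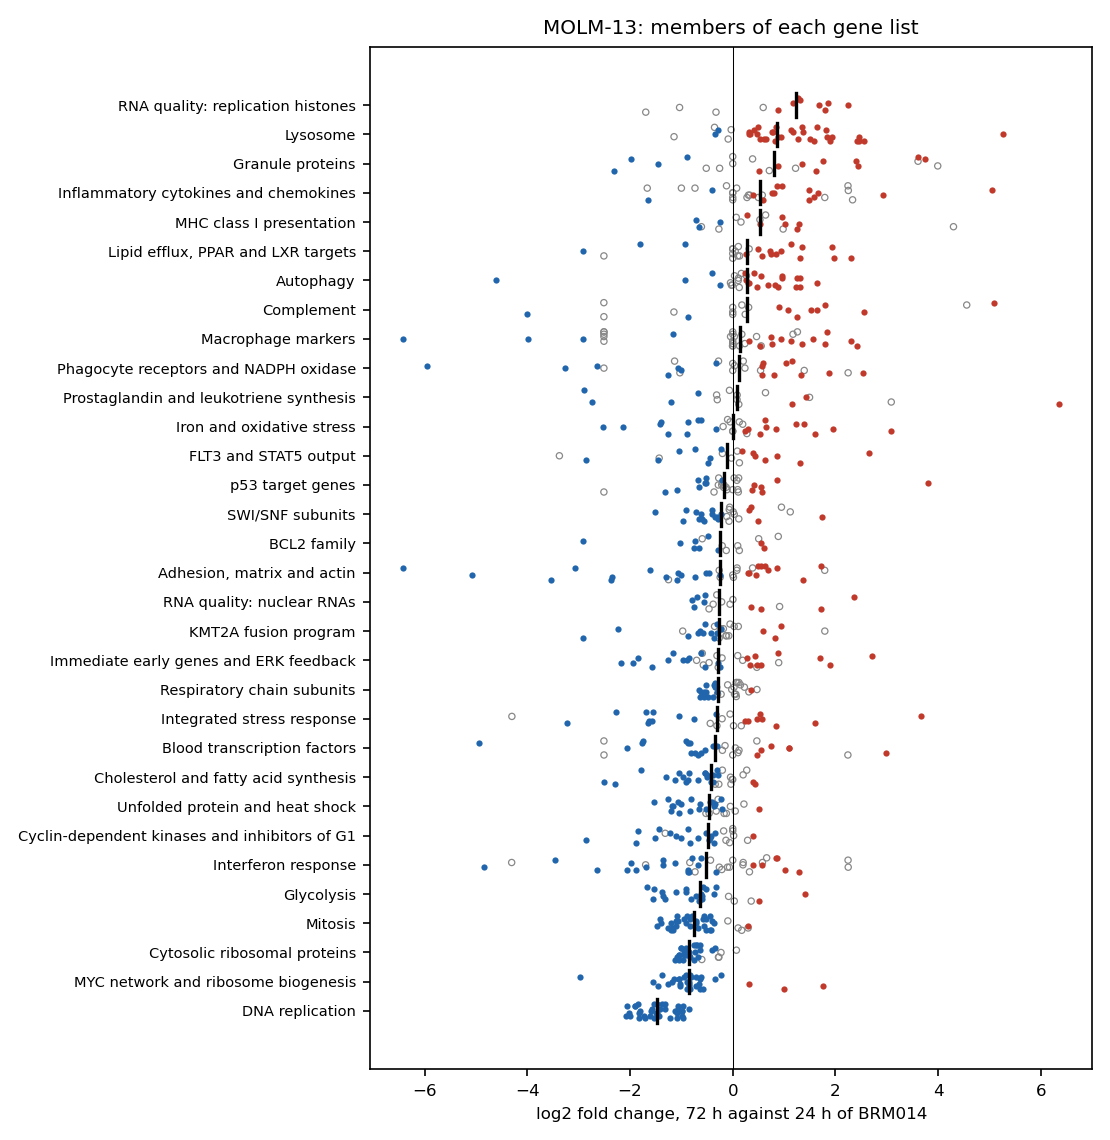
Each row is a gene list and each point a tested member at its log2 fold change of 72 h over 24 h in MOLM-13 (red called higher, blue called lower, open grey not called), with a black bar at the median over tested members. DNA replication lies wholly below 0 and lysosomal genes mostly above it, while blood transcription factors spread to both sides.

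Genes of p53 and of apoptosis went both ways. Of 30 p53 target genes 6 rose and 8 fell (median -0.17, or -0.11 with library size as the only scaling), beside the 20.8% and 22.7% of all genes tested, with TP53I3 the member that rose most. AEN, a p53-induced nuclease, fell by 1.33, and PLK3 fell by 1.08, a call lost without the first 24 h library (edgeR adjusted p = 0.051). In the BCL2 family 7 of 16 fell and 2 rose (median -0.24). BCL2, the survival protein targeted by venetoclax (chr18:63123346-63320128, minus strand), was at 345 and 332 CPM in DMSO, 202 and 209 at 24 h and 25.2 and 29.5 at 72 h (-2.91 ± 0.08). The pro-apoptotic genes BIK (-1.03 ± 0.18) and BAK1 (-0.76 ± 0.10) fell too. MCL1, the other main survival protein of myeloid cells, was at 787 and 754 CPM and then at 657 and 612 (-0.28 ± 0.06), above its DMSO level of 285 and 284.

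The transcription factors that define the lineage split. SPI1, which encodes PU.1, was at 297 and 375 CPM in DMSO, 121 and 145 at 24 h and 185 and 184 at 72 h (0.47 ± 0.12), so it rose between the times to a level still below DMSO. That call was lost without the first 24 h library (0.34, edgeR adjusted p = 0.063). CEBPA, which drives granulocyte differentiation, rose from 1109 and 1199 to 1746 and 1627 CPM (0.55 ± 0.10). CEBPB was at 13.9 and 10.5 and then 12.9 and 12.4 CPM (0.05 ± 0.16) and was not called.

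BCL6, a repressor of the zinc finger family, rose from 3.50 and 4.70 to 31.8 and 33.4 CPM (2.99 ± 0.17). GATA2, a factor of stem cells and mast cells, was at 85.4 and 104 CPM in DMSO, 371 and 363 at 24 h and 88.7 and 87.8 at 72 h (-2.05 ± 0.10), and ID2, an inhibitor of helix-loop-helix factors, was at 47.0 and 46.0, 83.8 and 80.2, and 25.6 and 22.5 (-1.77 ± 0.09). Thus both had their highest level at 24 h. IRF8, needed for monocytes, was at 585 and 603 CPM in DMSO, 77.3 and 70.9 at 24 h and 39.0 and 45.6 at 72 h (-0.81 ± 0.09), and MYB fell by 0.53. RUNX1 was at 551 and 588 and then 520 and 506 CPM (-0.15 ± 0.07), not called. Over the 30 tested blood transcription factors 14 fell and 6 rose (median -0.35, or -0.21 without the second 24 h library).

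Among 27 genes of the KMT2A fusion program 12 fell and 3 rose (median -0.26). HOXA9 was at 20.3 and 22.1 and then 22.7 and 23.0 CPM (0.11 ± 0.18), not called, and its partner MEIS1 fell from 40.2 and 49.6 to 28.5 and 29.6 (-0.63 ± 0.15), a call lost without the second 24 h library (edgeR adjusted p = 0.062). RUNX2 fell by 0.87 and ZFP36L2, an mRNA decay factor, rose by 0.95. FLT3 was at 443 and 423 CPM and then at 370 and 369 (-0.23 ± 0.06), a call lost without the first 24 h library (edgeR adjusted p = 0.054) or with library size as the only scaling (edgeR adjusted p = 0.055). In the list of FLT3 and STAT5 output 7 of 20 rose and 7 fell, beside 20.8% and 22.7% of all genes tested. The median of this list was -0.11, ranging from -0.020 in a fit of the 4 libraries alone to -0.20 without the first 72 h library. SOCS1, a feedback inhibitor, fell from 72.6 and 93.5 to 30.5 and 30.0 CPM, and CSF2RA, a cytokine receptor chain, went from 1.72 and 0.681 to 4.35 and 10.8 CPM (2.65 ± 0.84), a call lost without the second 24 h or the second 72 h library (edgeR adjusted p = 0.14 and 0.16).

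Of the drug's targets SMARCA4 fell and SMARCA2 was not called. SMARCA4 was at 331 and 344 CPM at 24 h and 225 and 214 at 72 h (-0.62 ± 0.07), and SMARCA2 at 149 and 155 and then 138 and 143 (-0.12 ± 0.06), not called. Of 27 SWI/SNF subunits 14 fell and 4 rose (median -0.23). ACTL6A (BAF53A), the actin-like subunit of proliferating progenitors, fell from 84.1 and 76.4 to 41.5 and 40.5 CPM (-0.97 ± 0.07), the core subunit SMARCC1 fell by 0.92, and SMARCD3 (BAF60C), a subunit known from muscle and heart, rose from 3.12 and 3.10 to 9.85 and 10.9 CPM (1.74 ± 0.18).

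Myeloid effector genes rose in part. Of 22 tested genes in the granule protein list 9 rose and 4 fell (median 0.80). Besides granule proteins this list holds the receptor gene CSF3R and the calprotectin genes S100A8 and S100A9, all of which rose. S100A9, the partner of S100A8 in calprotectin (chr1:153357854-153361027, plus strand), went from 9.23 and 9.78 to 113 and 119 CPM (3.61 ± 0.17), above its DMSO level of 5.04 and 5.97. LYZ (lysozyme) went from 118 and 117 to 403 and 394 (1.76 ± 0.07), and the antimicrobial peptide gene CAMP from 0.700 and 1.42 to 5.84 and 5.82. CSF3R, the receptor of the granulocyte growth factor and named after its values were seen, was at 198 and 212 CPM in DMSO, 69.1 and 70.8 at 24 h and 367 and 368 at 72 h (2.39 ± 0.07). LYZ and CSF3R were thus below DMSO at 24 h and above it at 72 h.

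The 4 granule genes that fell were MPO, CTSG, PRG2 and RNASE3. MPO (myeloperoxidase) went from 184 and 189 CPM in DMSO to 13.5 and 11.9 at 24 h and 7.92 and 5.82 at 72 h (-0.88 ± 0.21). CTSG (cathepsin G), named after its values were seen like the next gene, went from 755 and 758 to 191 and 193 CPM (-1.98 ± 0.18), and PRG2, the eosinophil major basic protein, from 50.4 and 48.4 to 8.94 and 10.9 (-2.32 ± 0.13). RNASE3, the eosinophil cationic protein, was likewise singled out afterwards and fell by 1.45.

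Macrophage markers moved in part, with 12 of 37 higher and 4 lower (median 0.13). The median was 0.76 in a fit of the 4 libraries alone, where members with next to no reads were not tested, and 0 without either second replicate. CD68, a late endosomal glycoprotein, went from 337 and 332 to 967 and 1015 CPM (1.57 ± 0.07), the scavenger receptor CD36 from 3.82 and 2.41 to 14.6 and 16.2 (2.30 ± 0.24), and PPARG, a lipid-sensing nuclear receptor, from 135 and 126 to 210 and 228 (0.74 ± 0.09). CSF1R, the macrophage growth factor receptor, was at 29.6 and 28.8 CPM in DMSO, 0.573 and 0.681 at 24 h and 1.98 and 2.55 at 72 h (1.83 ± 0.34), so it rose while remaining far under DMSO. CD14 was at 0.318 and 0.124 and then 0.193 and 0.468 CPM, about the level that a count of 0 allows. ITGAM (CD11b), at 19.1 and 19.5 and then 23.0 and 24.9 CPM (0.31 ± 0.10), lost its call when any of 3 of the 4 libraries was left out (edgeR adjusted p = 0.071 to 0.14).

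Of 28 phagocyte receptors and oxidase subunits 9 rose and 7 fell, beside 20.8% and 22.7% of all genes tested. Their median was 0.12, or 0.54 in a fit of the 4 libraries alone and -0.0047 without the second 72 h library. The inhibitory receptor PILRA rose from 4.07 and 6.19 to 31.5 and 28 CPM, the lipopolysaccharide receptor TLR4 from 5.79 and 5.14 to 19.9 and 20.4, and the oxidase subunit NCF4 from 38.3 and 39.2 to 91.9 and 103. CD33 fell from 47.7 and 52.4 to 22.1 and 19.7 CPM.

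In the complement list 8 of 20 rose and 2 fell (median 0.28, ranging from 0.17 without the first 72 h library to 1.0 in a fit of the BRM014 and DMSO libraries), and 5 rose without the second 24 h library. Besides C3, the receptor C5AR1 went from 1.34 and 1.05 to 7.25 and 6.92 CPM (2.56 ± 0.32). CFD (complement factor D) was at 125 and 27.8 CPM at 24 h, a spread unlike that of other members, and at 182 and 182 at 72 h (1.25 ± 0.37). Its value was 2.70 without the first 24 h library and 0.53 without the second (edgeR adjusted p = 0.062). Among 16 genes of prostaglandin and leukotriene synthesis 3 rose and 4 fell, beside 20.8% and 22.7% of all genes tested (median 0.09, ranging from 0.0026 without the second 72 h library to 0.15 with library size as the only scaling). With PTGDS rose ALOX5AP, which presents arachidonic acid to 5-lipoxygenase, from 232 and 214 to 568 and 632 CPM (1.43 ± 0.11), and the thromboxane synthase TBXAS1 fell by 1.20.

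Of 17 genes of MHC class I presentation 6 rose and 3 fell, beside 20.8% and 22.7% of all genes tested. Their median was 0.53, or 0.23 without the second 24 h library. The shared light chain B2M went from 207 and 176 to 438 and 472 CPM (1.25 ± 0.09), the transactivator NLRC5 rose by 1.30 and the loading factor TAPBP by 1.03. Of 7 class II genes CD74, the invariant chain, was the single one called, and it fell from 61.2 and 71.1 to 15 and 17.6 CPM (-2.02 ± 0.10), with 4 of the 7 at no read in the 4 libraries.

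Lysosomal genes rose broadly. Of 38 tested 32 rose and 2 fell (median 0.86), and the summed level of the list went from 7689 and 7835 CPM to 20860 and 20617. CTSD, the aspartic protease cathepsin D (chr11:1752752-1764573, minus strand), was at 180 and 215 CPM in DMSO, 407 and 425 at 24 h and 2355 and 2245 at 72 h (2.47 ± 0.09). The acid ceramidase ASAH1 went from 91.4 and 86.7 to 484 and 502 CPM (2.47 ± 0.08), and the acid nuclease DNASE2 from 182 and 188 to 1004 and 982 (2.43 ± 0.11). GRN, the precursor of lysosomal granulins (chr17:44345086-44353102, plus strand), named after its values were seen, was at 445 and 490, 1657 and 1796, and 6009 and 6113 CPM across DMSO, 24 h and 72 h (1.81 ± 0.07). The 2 members that fell, named for that reason, were the protease CTSS (-0.29) and the galactosidase GLA (-0.34). The levels of CTSD, DNASE2 and GRN were ordered DMSO, 24 h, 72 h without overlap, whereas ASAH1 was lower at 24 h than in DMSO, at 119 and 109.

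TFEB and its relatives, master regulators of lysosome genes, bind a palindromic element known as CLEAR, searched here as TCACGTGA. It was found in 5 of 27 lysosomal genes with a window (18.5%), in 1.72% of tested genes and in 1.04% of all windows. TFEB itself, named after its values were seen, was at 32.1 and 25.4 and then 49.9 and 40.2 CPM (0.65 ± 0.14). Stretches of 3 members that hold the element are shown with it in capitals, all on the plus strand and ending at the latest at the gene's start. They belong to CTSA, the protective cathepsin A (chr20:45891284-45891334, 1.90), GAA, acid alpha-glucosidase (chr17:80101524-80101580, 1.5), and MCOLN1, a lysosomal cation channel (chr19:7522584-7522623, 1.13).
CTSA: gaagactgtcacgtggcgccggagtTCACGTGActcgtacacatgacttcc
GAA: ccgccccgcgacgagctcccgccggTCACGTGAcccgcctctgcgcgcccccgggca
MCOLN1: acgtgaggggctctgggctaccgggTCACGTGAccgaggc

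Autophagy genes rose in 17 of 30 and fell in 4 (median 0.28). The cargo receptor SQSTM1 (p62) went from 272 and 270 to 842 and 840 CPM (1.63 ± 0.08), ATG16L2 rose by 1.31 and the phosphoinositide effector WIPI1 by 1.30. SQSTM1 and WIPI1 share part of their exons with neighbouring genes, which leaves their counts uncertain because the strand setting of counting is not given. Among 29 genes of iron handling and oxidative stress 11 rose and 10 fell (median 0), beside 20.8% and 22.7% of all genes tested. The haemoglobin scavenger HP (haptoglobin, chr16:72054592-72061055, plus strand) was at 1.96 and 1.92 CPM in DMSO, 82.4 and 73.7 at 24 h and 646 and 684 at 72 h (3.09 ± 0.16). HP has a close copy, HPR, so reads may be split between them. HMOX1, which degrades haem, went from 19.4 and 22.2 to 63.4 and 62.4 CPM, and FTH1, the ferritin heavy chain, from 818 and 824 to 3212 and 3116 (1.95 ± 0.10), though 62.4% of its exon length overlaps BEST1. NQO1, a quinone reductase controlled by NRF2, took the other course, at 10.3 and 10.6 CPM in DMSO, 73.2 and 68.5 at 24 h and 11.7 and 12.9 at 72 h (-2.52 ± 0.09).

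**Figure D3:**
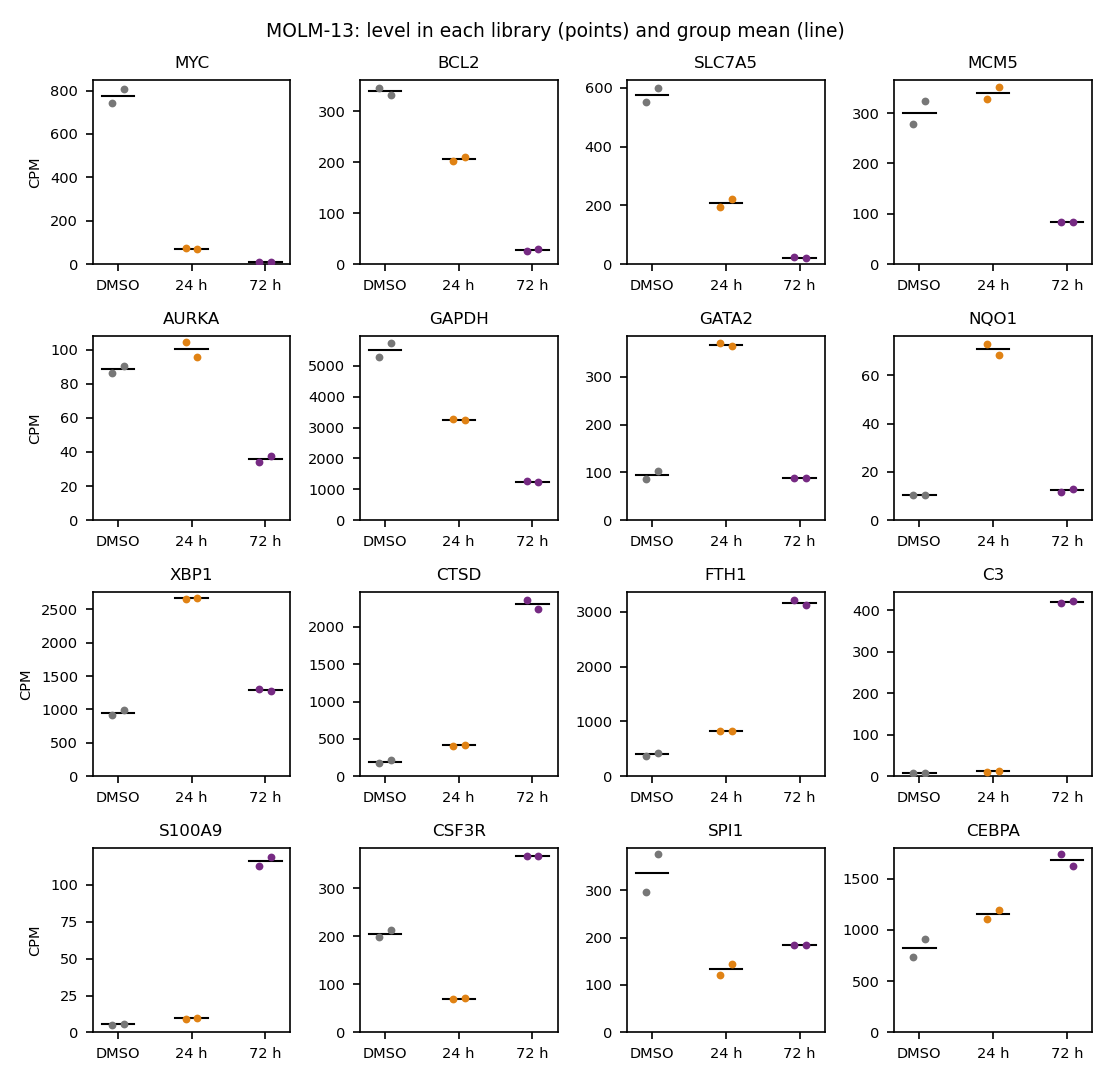
Levels in CPM (linear axis from 0, a separate scale for each gene) in the DMSO, 24 h and 72 h libraries of MOLM-13, with a point for each of the 2 libraries of a group and a line at their mean. MYC, BCL2 and SLC7A5 step down at each time, GATA2, NQO1 and XBP1 peak at 24 h, CTSD and FTH1 climb, and SPI1 and CSF3R are lowest at 24 h.

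Several genes thus peaked at 24 h, though the groups in DMSO have no stated time. XBP1, a factor of the unfolded protein response named after its values were seen, was at 912 and 986 CPM in DMSO, 2659 and 2666 at 24 h and 1301 and 1274 at 72 h (-1.05 ± 0.08). CTTN (cortactin), LINC00968 and HMOX1 were already above DMSO at 24 h and rose again. CTTN was at 3.21 and 4.55 CPM in DMSO, 127 and 133 at 24 h and 179 and 177 at 72 h (0.45 ± 0.10), and LINC00968, a long non-coding RNA, at 0.850 and 0.426, 72.1 and 72.1, and 155 and 166 (1.15 ± 0.10). SASH3, a lymphoid and myeloid adaptor, went down at both times, from 80.5 and 94.1 CPM to 1.85 and 1.24 and then to 0.193 and 0.208 (-2.90 ± 0.42).

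Lipid genes divided by function. Of 31 genes of cholesterol and fatty acid synthesis 20 fell and 2 rose (median -0.42), after a median of -1.62 at 24 h against DMSO. The desaturases FADS2 and FADS1 fell most, FADS2 from 42.5 and 40.4 to 8.65 and 5.88 CPM (-2.51 ± 0.13) and FADS1 by 2.30, and the elongase ELOVL6 fell by 1.79. Fatty acid synthase (FASN), named after its values were seen, was at 1936 and 2064 CPM in DMSO, 154 and 176 at 24 h and 92.0 and 88.0 at 72 h. The sterol response element, searched on both strands as TCACCCCAC, was in 1 of the 25 promoter windows of this list (4.0%), 0.40% of those of tested genes and 0.42% of all. Of 26 genes of lipid efflux and of the PPAR and LXR receptors 13 rose and 3 fell (median 0.29, or 0.66 in a fit of the 4 libraries alone and 0.18 without the first 24 h library). ABCA1, the cholesterol exporter, went from 12.7 and 12.3 to 52.2 and 45.6 CPM (1.96 ± 0.15), and the lipid droplet protein PLIN2, named after its values were seen, from 69.8 and 62.2 to 250 and 255 (1.93 ± 0.09). FABP5, a fatty acid chaperone, fell from 73.7 and 70.0 to 9.37 and 9.67 CPM (-2.91 ± 0.13).

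Genes induced by interferon fell in 17 of 40 and rose in 6, beside 22.7% and 20.8% of all genes tested. Their median was -0.52, ranging from -0.26 without the second 24 h library to -0.79 without the second 72 h library. IFIT1, an RNA-binding antiviral protein, was at 19.9 and 20.2 CPM in DMSO, 7.89 and 11.5 at 24 h and 0.918 and 2.18 at 72 h (-2.65 ± 0.39). The nucleotide kinase CMPK2 went from 10.2 and 8.79 to 1.69 and 2.91 CPM (-2.05 ± 0.20), and IFIT3 from 8.34 and 8.48 to 2.61 and 4.0 (-1.35 ± 0.19).

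The interferon-stimulated response element was searched on both strands as GAAA, any 2 bases and GAAA again. It was present in 19 of 29 interferon genes with a window (65.5%), in 2.99% of tested genes and in 3.65% of all windows. IFITM1, a membrane protein that blocks viral entry (chr11:313975-314034, -3.47, under 1 CPM at both times), IFIT1 (chr10:89392495-89392554, 2 matches on the opposite strand) and the exonuclease ISG20 (chr15:88638922-88638981, -1.36) are shown on the plus strand with matches in capitals.
IFITM1: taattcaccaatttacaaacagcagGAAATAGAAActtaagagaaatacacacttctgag
IFIT1: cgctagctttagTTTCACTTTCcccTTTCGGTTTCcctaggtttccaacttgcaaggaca
ISG20: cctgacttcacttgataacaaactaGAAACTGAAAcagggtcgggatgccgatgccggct

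Among inflammatory cytokines and chemokines more rose than fell, with 12 of 32 rising and 2 falling (median 0.54, or 0.82 in a fit of the MOLM-13 libraries alone). VEGFA went from 114 and 115 to 353 and 369 CPM (1.66 ± 0.11), interleukin 1 beta (IL1B) from 1.15 and 0.929 to 7.78 and 8.06 (2.93 ± 0.51), and the death ligand TNFSF10 (TRAIL) fell from 16 and 15 to 5.31 and 4.52. Immediate early genes and feedback inhibitors of ERK signalling moved both ways, 9 of 33 up and 13 down (median -0.29). The shares over all genes tested were 20.8% and 22.7%. FOSB rose from 0.891 and 1.42 to 8.89 and 6.29 CPM, whereas the phosphatase DUSP2 fell by 2.18 and the ETS factor ETV4 by 1.94. Of 34 adhesion, matrix and actin genes 15 fell and 10 rose, beside 22.7% and 20.8% of all genes tested. Their median was -0.24, or -0.11 in a fit of the 4 libraries alone and -0.14 without the first 24 h library. The integrin subunit ITGA4 went from 163 and 152 to 12.5 and 14.7 CPM (-3.53 ± 0.12) and the hyaluronan receptor CD44 from 19.5 and 19.6 to 3.48 and 4.21 (-2.35 ± 0.17). The protease PLAU fell by 2.37, with 31% of its exon length shared with C10orf55.

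Non-coding RNAs and pseudogenes fell less often than protein-coding genes. The non-coding RNAs also rose less often, and pseudogenes rose about as often. Of 1262 long non-coding, antisense and small RNAs tested 200 rose (15.8%) and 61 fell (4.83%), at a median of 0.26. Of 405 pseudogenes 92 rose (22.7%) and 23 fell (5.68%), at a median of 0.31. Among 14387 protein-coding genes 3066 rose (21.3%) and 3702 fell (25.7%). In MV-4-11 these RNAs gave 144 up and 68 down and the pseudogenes 50 up and 21 down. In THP-1 the RNAs gave 160 up and 52 down and the pseudogenes 66 up and 17 down. The nuclear RNA NEAT1, a scaffold of paraspeckles, went from 491 and 487 to 1639 and 1585 CPM (1.72 ± 0.09) and MALAT1 from 3.82 and 2.48 to 12.8 and 19.6 (2.36 ± 0.36), while the small nucleolar RNA host SNHG12 fell by 0.79. Of 16 nuclear RNAs 4 rose and 5 fell, beside 20.8% and 22.7% of all genes tested. Their median was -0.26, with -0.064 without the first 72 h library and -0.43 without the second. Replication-dependent histone transcripts, most of which end in a stem-loop and not in a poly(A) tail, rose in 8 of 12 and fell in none (median 1.23), with HIST2H2BE going from 3.63 and 5.51 to 18.8 and 24.4 CPM (2.24 ± 0.22), HIST1H2AC rising by 1.69 and HIST1H4H by 1.80. The share of reads assigned to no feature rose beside them, as given above, and its part was not tested.

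The same contrast of 72 h with 24 h called 3119 genes higher and 2830 lower in MV-4-11 (18.6% and 16.9%, together 35.4% of those tested) and 2724 and 2766 in THP-1 (16.2% and 16.5%, together 32.7%). A test of the difference itself, the time change in MOLM-13 minus the mean of the other lines, called 1763 genes with a higher change in MOLM-13 (10.5%) and 2341 with a lower one (13.9%). Against MV-4-11 alone these counts were 1423 and 2208 (8.47% and 13.1%), and against THP-1 alone 2098 and 2347.

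**Figure D4:**
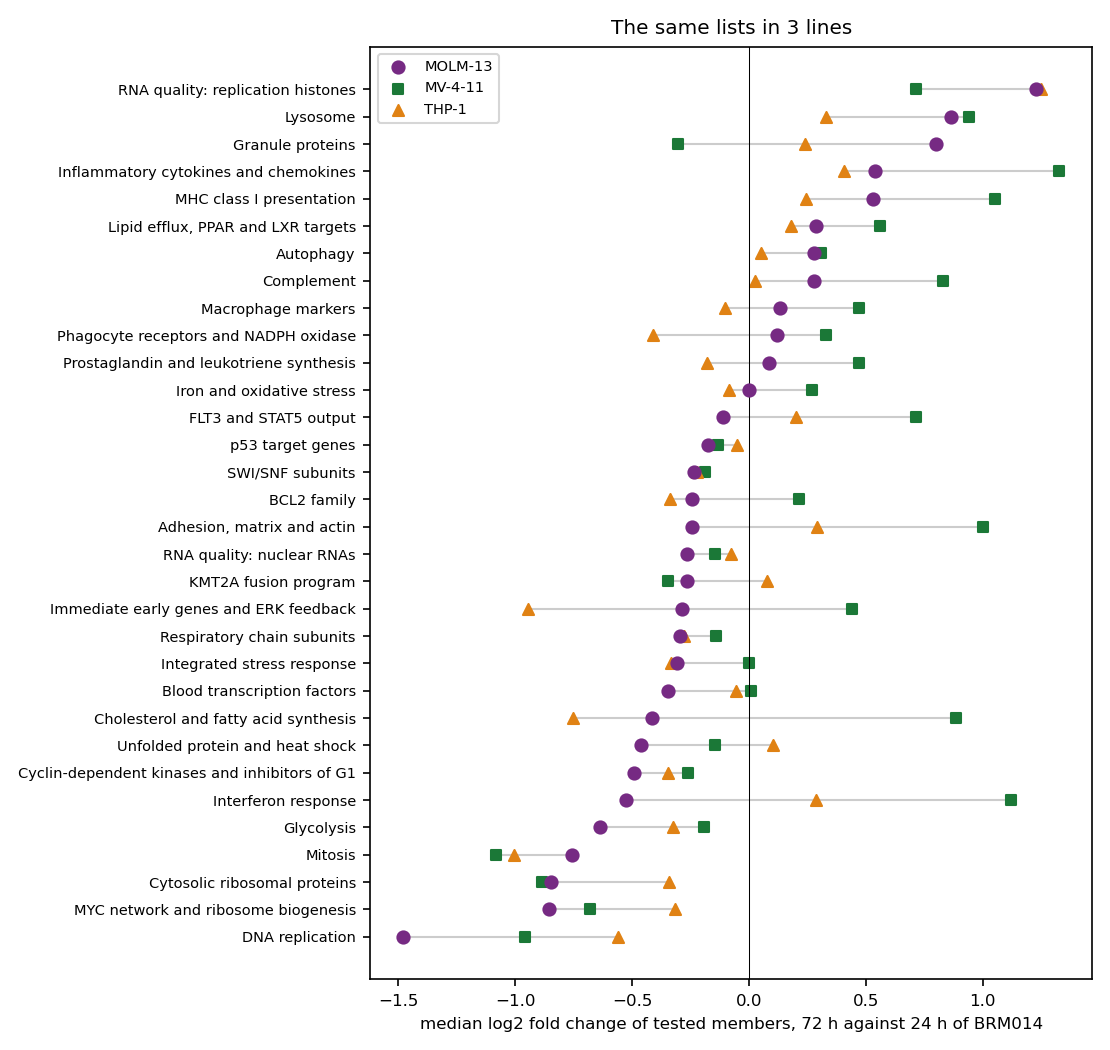
Median log2 fold change of 72 h over 24 h of BRM014 over the tested members of each list, for MOLM-13 (circles), MV-4-11 (squares) and THP-1 (triangles). Cholesterol synthesis, interferon and adhesion genes lie below 0 in MOLM-13 and above it in MV-4-11. Cholesterol synthesis genes are lower still in THP-1. DNA replication and MYC network genes are below 0 in each line and lowest in MOLM-13.

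DNA replication genes fell in every line, with medians of -1.48 in MOLM-13, -0.96 in MV-4-11 and -0.56 in THP-1, and 31 of the 37 had a lower change in MOLM-13 than in the other lines by the test of the difference. Mitotic genes had medians of -0.76, -1.08 and -1.0 in that order, and 16 of 36 had a higher change in MOLM-13 and 2 a lower one. Of the MYC network and ribosome biogenesis genes 20 of 34 had a lower change in MOLM-13 and 3 a higher one. MYC went from 126 and 139 to 37.0 and 40.8 CPM in MV-4-11 (-1.77) and from 19.3 and 17.2 to 18.3 and 17.5 in THP-1 (-0.03), where it was not called. CDKN1A fell in MOLM-13 and rose in both other lines, by 0.60 in MV-4-11 and 0.66 in THP-1 (difference -1.31 ± 0.10, edgeR adjusted p = 6.5e-09).

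Cholesterol and fatty acid synthesis diverged between the lines. In MV-4-11 26 of the 31 genes rose and none fell, and in THP-1 none rose and 24 fell. The medians were -0.42 in MOLM-13, 0.89 in MV-4-11 and -0.75 in THP-1, so that of MOLM-13 lay between the others. Against the mean of these opposite lines 18 had a lower change in MOLM-13 and none a higher one. FADS2 went from 205 and 191 to 545 and 602 CPM in MV-4-11. Interferon genes rose in 28 of 40 and fell in 3 in MV-4-11 (median 1.12), rose in 14 and fell in 4 in THP-1 (median 0.29), and 20 had a lower change in MOLM-13, against 1 higher. Of the 34 adhesion genes 20 had a lower and 1 a higher change in MOLM-13, and of the 29 chaperone and unfolded protein genes 18 had a lower one and none a higher one. HSPA8, a constitutive chaperone named after its values were seen, fell by 1.18 in MOLM-13, with log2 fold changes of -0.81 in MV-4-11 and 0.11 in THP-1. Members of the granule protein list leaned the other way, 9 of 22 with a higher change in MOLM-13 and 1 with a lower one. So did lysosomal genes, 17 and 6 of 38, although their median of 0.94 in MV-4-11 was above the 0.86 of MOLM-13.

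Single genes with the largest differences against both lines included acute phase proteins. ORM1 and ORM2, which encode orosomucoids, rose in MOLM-13, ORM1 from 3.57 and 3.96 to 19.0 and 21.6 CPM (2.43 ± 0.27), while ORM1 fell by 1.52 in MV-4-11 and 1.36 in THP-1. The pair are near-identical copies, so their counts are uncertain. S100P, a calcium-binding protein, went from 2.93 and 2.35 to 30.3 and 28.3 CPM in MOLM-13 (3.47 ± 0.20), rose by 1.95 in MV-4-11 and fell by 2.94 in THP-1. Its THP-1 levels were low, at 1.02 and 1.17 CPM and then 0.210 and 0.0580, so the fall there rests on few reads. TP53I3 was already at 33.9 and 29.4 CPM at 24 h in MV-4-11 and at 28.2 and 25.3 in THP-1, near the 72 h level of MOLM-13. MATN2, a matrix protein, went from 0.764 and 0.990 to 9.47 and 9.98 CPM in MOLM-13 (3.46 ± 0.39), and its difference between lines was not called without the second 24 h library of MV-4-11 (2.62, edgeR adjusted p = 0.11).

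On the other side, DHRS9, a retinol dehydrogenase, fell in MOLM-13 from 11.6 and 10.1 to 2.27 and 3.95 CPM (-1.81 ± 0.19) and rose in THP-1 from 40.3 and 40.1 to 71.6 and 79.0. In MV-4-11 DHRS9 was at 0 and 0.0912 CPM at 24 h and 0.905 and 0.759 at 72 h. The difference against MV-4-11 therefore rests on few reads. IFIT1 rose by 1.77 in MV-4-11 and 1.36 in THP-1. ANGPT1 was at 9.70 and 7.07 and then 7.18 and 6.38 CPM in MV-4-11, where it was not called, and THP-1 held almost no read of it, so the difference against THP-1 rests on next to no counts. ADAMTS5, a protease of matrix proteoglycans, was at 5.48 and 4.58 and then 2.95 and 3.59 CPM in MOLM-13 (-0.62 ± 0.34), not called except in a fit of the 4 libraries alone (edgeR adjusted p = 0.038), and rose from 6.92 and 7.98 to 18 and 17.7 in MV-4-11. THP-1 had no read of ADAMTS5 at 24 h, which makes the fitted change there no bound. ELFN1 was under 1 CPM in the BRM014 libraries of MV-4-11 and THP-1, and its difference was not called without the second 72 h library of THP-1 (-2.57, edgeR adjusted p = 0.20).

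**Figure D5:**
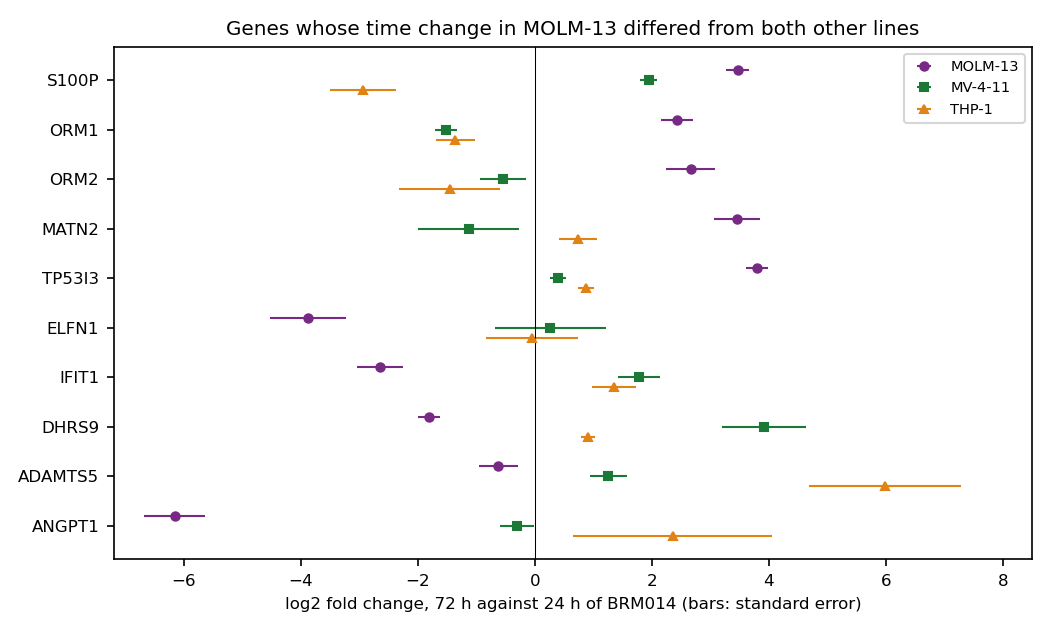
Log2 fold change of 72 h over 24 h of BRM014 (points) with standard error (bars) in MOLM-13, MV-4-11 and THP-1 for the 10 genes named by size of the difference between lines. The MOLM-13 points of the upper 5 genes lie right of both other lines and those of the lower 5 left of them, and the wide bars of ANGPT1 and ADAMTS5 in THP-1 come with almost no reads there.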

How the data were processed

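The deposited values were counts of reads per gene symbol, 1 library a file, not normalized by the authors as far as the files show. Per the submitters' processing notes the tools included HTSeq, HISAT2 2.1.0 and DESeq2 with the build hg38, with no roles stated, and the gene annotation and strand setting are not given in the sources used here. The 5 summary lines that name no gene were left out. A single model of all 22 libraries was made with R 4.3.3, edgeR 4.0.16 and limma 3.58.1, with a coefficient per group, TMM scaling and filterByExpr (minimum count 10), which left 16794 of 28063 genes. Contrasts were tested by edgeR's quasi-likelihood F, adjusted by Benjamini and Hochberg's method and called under 0.05. Standard errors were derived as the log2 fold change over the root of F. The code was tested on simulated data. A ratio resting on 1 to 3 reads has an exact 95% interval (Clopper-Pearson on the summed counts). Positions come from GENCODE v29 by symbol (25815 of 28063 matched) and promoter stretches from RefSeq (GRCh38.p14).

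Named were the 12 largest rises and 12 largest falls at 5 CPM or more without overlap between the times, 28 key genes, the 3 most changed called members of each of 36 lists, the 5 largest differences between lines in each direction, and genes marked as named after their values were seen. The members and lists were chosen with earlier results of these data known. Alternatives were other scalings (library size, DESeq2 size factors), the DESeq2 1.42.0 test, no filter, fewer libraries in the fit, a replicate block and leaving out each library. Replicate numbers did not pair the libraries. Some genes that the rule for named genes selects are not reported here.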

Additional observations from a re-analysis of the deposited data

Results flagged for a closer look

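Of the 160 genes that the rule for named genes selects or that were added to it, 107 had a change from 24 h to 72 h in MOLM-13 that differed from the mean of MV-4-11 and THP-1 by the interaction term of the same edgeR fit, 46 higher and 61 lower. The 22 among the key genes and the genes named for this difference are given here. Differences are MOLM-13 minus the mean of the others on the log2 scale. The change in MOLM-13 was higher for S100P (3.96), ORM1 (3.87), ORM2 (3.67), MATN2 (3.66), TP53I3 (3.17), CSF1R (3.08), LYZ (1.97), PTGDS (1.58), HP (1.27), LINC00968 (1.15), HMOX1 (0.64) and RUNX1 (0.25). It was lower for MCL1 (-0.24), SMARCA4 (-0.26), CDKN1A (-1.31), BCL2 (-1.48), MYC (-2.08), ELFN1 (-3.99), IFIT1 (-4.22), DHRS9 (-4.22), ADAMTS5 (-4.24) and ANGPT1 (-7.19). Without the first 72 h library of MV-4-11 the difference for CSF1R was 4.93, and without the second 72 h library of THP-1 that for ORM2 was 5.54.

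The mean of the other lines hides opposite changes for some of these. PTGDS rose more in MV-4-11 (7.94) than in MOLM-13 (6.36) and less in THP-1 (1.62). LYZ rose by 1.76 in MOLM-13 and 0.90 in MV-4-11 and fell by 1.32 in THP-1, from 231 and 214 to 87.2 and 91.1 CPM. MCL1 fell by 0.28 in MOLM-13 and 0.47 in THP-1 and rose by 0.39 in MV-4-11. CSF1R was at or under 0.41 CPM in every MV-4-11 library of the contrast.

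The calls for HMOX1, RUNX1, MCL1 and SMARCA4 rest on small differences, and each was lost in 8 to 14 of the 18 alternatives run, including left-out libraries of all 3 lines. ANGPT1 was not called without the second 72 h library of THP-1 (-6.01, edgeR adjusted p = 1.0), the single library of that line with a read of it in the contrast.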

How the results depend on the processing

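The counts of genes called between 24 h and 72 h stayed within 1.5 times of 3488 higher and 3818 lower under every alternative run. Without 1 library at a time they were 2756 to 2867 and 3199 to 3294, and for the difference between lines 1246 to 1655 higher and 1717 to 2197 lower, against 1763 and 2341. With library size as the only scaling 3923 rose and 3435 fell, and 94.8% of the calls were the same genes in the same direction. DESeq2 gave 3390 and 3799. Replicate numbers did not pair the libraries (correlation of deviations -0.022 between 24 h and 72 h), and with the replicate block 3345 rose and 3705 fell. Of 1918 values for 160 genes under the alternatives, 1899 kept direction and side of the threshold. CEBPB turned to -0.14 without the second 24 h library (0.05 with all, -0.14 to 0.26 without any 1 library) and CD14 to -0.18 without the second 72 h library (0.55 with all, -0.18 to 1.35), neither called. RUNX1 passed the threshold with the BRM014 and DMSO libraries only (-0.14) and with the 4 libraries alone (-0.15). ADAMTS5 passed it with the 4 libraries alone (-0.62). Where a list's median moved by over 1.5 times, its furthest values stand beside the list in the report. For all of these the cause was not tested. Leaving out a library leaves an arm with 1 sample, assumed to vary like the other groups. With 2 libraries a time and no matched DMSO time, small changes and genes under about 1 CPM are the least certain.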
